A study of Homo sapiens with 10 samples.

Results

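The genes described here are those of the cytosolic ribosomal proteins, followed in HEK-293 cells across 5 small interfering RNA (siRNA) groups. They were chosen by symbol from the platform annotation, as symbols that start with RPL or RPS and a digit, or with RPLP or RPSA, without pseudogenes and without the RPS6K kinases. The rule found 70 of the 18404 genes measured. Of these, 68 encode a ribosomal protein or a copy of one. The other 2 were taken by their symbol alone, RPL34-DT, a non-coding RNA gene, and RPS19BP1, a protein known for binding RPS19. The set held 21 proteins of the small subunit, 34 of the large subunit, the stalk proteins RPLP1 and RPLP2, and 11 paralogs or copies. A further 11 ribosomal protein symbols, RPL13A and RPS18 among them, occurred only in probe sets with several symbols and were not analysed here, and neither were RPLP0, RPSA and RPS27A. The Y-linked copies RPS4Y1 and RPS4Y2 were counted and their values are not given.

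HEK-293 is an established human embryonic kidney line. Cells received 1 of 2 siRNAs to the long non-coding RNA LOC440173 (siRNA 1 or siRNA 2, now LINC02893) at 10 nM, an siRNA to PAXIP1-AS1 at 100 nM, or a negative control siRNA at 10 nM or at 100 nM, all with the same transfection reagent, and RNA was taken 48 hours later. Each of the 5 groups had 2 Affymetrix arrays, called biological replicates in the labels, and the values are RMA levels on the log2 scale. The siRNAs were given by transient transfection. The PAXIP1-AS1 experiment rests on 1 siRNA sequence, so what belongs to the target and what to the siRNA cannot be told apart there.

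A ribosome translates messenger RNA through a small subunit that decodes and a large subunit that forms peptide bonds. Their proteins are made in matched amounts, and most of their messenger RNAs begin with a C and a run of pyrimidines, the 5′ terminal oligopyrimidine (TOP) tract, through which mTOR and LARP1 control their translation and stability. Ribosomal proteins left over when assembly fails bind MDM2, RPL5 and RPL11 above all, which stabilises p53. Several paralogs are known to be used mainly in germ cells or muscle or to respond to p53.

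LINC02893 itself was at 51.4% of the control with siRNA 1 and at 27.0% with siRNA 2, and no probe set was assigned to PAXIP1-AS1. Array medians over all 32321 probe sets lay between 7.06 and 7.12, and over the 18404 genes between 7.58 and 7.70, and replicate arrays correlated at 0.997 to 0.998. Of 8 measured markers of HEK-293 cells, 6 were above the median gene, 7.66, against 0 of the hepatocyte, blood and keratinocyte markers and 1 of 5 for fibroblasts and endothelium. The HEK-293 markers averaged 9.22 with siRNA 1, 9.44 with siRNA 2 and 9.25 with the PAXIP1-AS1 siRNA, against 9.45 and 9.46 in the controls at 10 nM and 100 nM, and their part in the results was not tested. In bulk RNA, fewer cells of a kind and less RNA per cell cannot be told apart.

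The 5′ ends show what the genes share beyond their names. Promoter windows from RefSeq (GRCh38.p14, 250 bases before to 50 after the annotated start) were found for 58 of the 70 genes. Within 20 bases of the start on either side, 43 of 48 subunit and stalk genes (89.6%) had a C followed by at least 5 more pyrimidines on the sense strand. A TOP tract has this form at the 5′ end itself, whereas the run counted here could lie anywhere in the window. The share with such a run was 5 of 9 paralogs (55.6%) and 30.2% of 15843 protein-coding genes. The windows below, 20 bases either side of the start, belong to genes that the results turn on, with the longest such run in capitals.
RPS23, chr5:82278335-82278374, minus strand: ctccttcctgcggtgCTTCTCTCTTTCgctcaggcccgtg
RPL28, chr19:55385912-55385951, plus strand: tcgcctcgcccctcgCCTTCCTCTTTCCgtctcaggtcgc
RPL24, chr3:101686699-101686738, minus strand: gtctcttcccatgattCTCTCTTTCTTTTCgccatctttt
RPL37A, chr2:216498824-216498863, plus strand: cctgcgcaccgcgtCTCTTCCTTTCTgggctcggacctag
RPS15, chr19:1438376-1438415, plus strand: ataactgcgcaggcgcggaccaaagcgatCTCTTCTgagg
RPL36AL, chr14:49620607-49620646, minus strand: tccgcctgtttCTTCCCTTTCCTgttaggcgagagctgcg
RPL22L1, chr3:170870176-170870215, minus strand: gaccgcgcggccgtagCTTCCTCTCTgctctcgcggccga
RPL7L1, chr6:42879596-42879635, plus strand: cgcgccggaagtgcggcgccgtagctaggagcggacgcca
RPS27L, chr15:63157458-63157497, minus strand: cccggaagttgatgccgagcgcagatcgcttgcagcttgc
The run was 12 bases long in RPS23, RPL37A and RPL36AL, 13 in RPL28 and 14 in RPL24. In RPS15 it began at transcribed base 10 by the annotated start, and in RPL10 (window not printed) 18 bases before that start. The paralogs RPL7L1 and RPS27L had none in this window, whereas RPL22L1 had one of 10 bases. The subunit gene RPL13 and the paralog RPL26L1, whose windows are not printed, had none either.

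Other short motifs were searched on both strands of the whole 300-base window. The ETS-type motif CCGGAAG was in 17 of the 48 subunit and stalk windows (35.4%), against 14.2% of all protein-coding genes. CTCGCGA was in 12 (25.0%, against 3.26%) and the YY1-type motif AAGATGG in 6 (12.5%, against 6.40%). GGGCGG, an SP-type box, was in 58.3% against 58.5%, and TATAA in 18.8% against 16.7%. Among the 9 paralogs, 2 windows held CCGGAAG and 0 held CTCGCGA. These are matches of letters in a window and not measured binding.

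Signals of the ribosomal protein probe sets were mostly high. The mean level was 12 or more for 35 of the 70 genes, as for 273 of all genes, and 9 lay below the median gene, among them the paralogs RPL3L (6.87), RPL10L (7.37), RPL39L (7.61) and RPL22L1 (7.18) and also RPL22 (7.07). Signal also depends on the probes, so these levels do not rank RNA amounts. The median replicate SD was 0.043 for the 70 genes and 0.083 for all genes, and the median range of the 5 group means was 0.19 and 0.30 (log2). Among genes at 12 or more the replicate SD was nearly equal, 0.030 for the ribosomal protein genes and 0.032 for all, and the ranges were 0.12 and 0.19. Many of the genes have processed pseudogenes and near-identical copies, so a probe set may record more than the named gene, and how far bright probe sets compress a change was not tested.

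With siRNA 1, 9 of the 70 genes rose and 8 fell against the control at 10 nM (limma, Benjamini-Hochberg adjusted p under 0.05 over all genes). Over all genes 12.1% were called higher and 16.7% lower, 28.8% in all, and of the ribosomal protein genes 24.3% moved. Their median log2 fold change was 0.07, with 0.05 over all genes, and their median absolute change was 0.12, with 0.16. Small and large subunit genes both split, with 4 higher and 2 lower of 21, and 4 higher and 3 lower of 34. The stalk genes gave 0.13 for RPLP1 and 0.05 for RPLP2 (adjusted p = 0.0841 and 0.459).

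RPS23, a protein of the decoding centre, was the small subunit gene that fell furthest with siRNA 1. Its level was 10.55 and 10.61 with siRNA 1, 10.67 and 10.81 with siRNA 2, and 11.17 and 11.26 in the control at 10 nM. All 4 arrays of the LOC440173 siRNAs were below both control arrays. In the limma fit siRNA 1 lowered it to 64.3% of the control (log2 fold change -0.64, SE 0.064, adjusted p = 0.000252) and siRNA 2 to 71.9% (-0.48, SE 0.064, adjusted p = 0.000885). Both contrasts share the control arrays. With the PAXIP1-AS1 siRNA RPS23 was at 11.21 and 11.24, against 11.23 and 11.23 in the control at 100 nM, a log2 fold change of -0.01 (adjusted p = 0.962). The call held with either LOC440173 siRNA under all 18 alternatives, which were 8 other settings and each array left out.

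RPS29, a small zinc-binding protein of the 40S head, also fell with siRNA 1, at 7.82 and 7.95, against 8.20 and 8.35 in the control (log2 fold change -0.39, SE 0.090, adjusted p = 0.0147), without overlap. With siRNA 2 it was at 8.07 and 8.24 and was not called (-0.12, adjusted p = 0.407). The small subunit genes that rose with siRNA 1 did so by less. RPS14 was at 13.15 and 13.15, against 12.93 and 12.90 in the control (0.23, SE 0.048, adjusted p = 0.00798), and RPS16 at 11.89 and 11.86, against 11.72 and 11.64 (0.20, adjusted p = 0.0266). RPS27 and RPS3A made up the rest, with log2 fold changes of 0.19 and 0.17 (adjusted p = 0.0188 and 0.0380), the RPS3A call being lost under 10 of 18 alternatives. A second, dimmer probe set of RPS27 read 0.06 with siRNA 1. The dimmer probe sets of RPS3A read 0.18, 0.10, -0.27 and 0.20, and none of these was called.

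In the large subunit the clearest rises with siRNA 1, by the brightest probe sets, were those of RPL37A and RPL28. RPL37A, a zinc-binding protein, was at 11.35 and 11.30 with siRNA 1, 10.87 and 10.90 with siRNA 2, and 10.97 and 11.01 in the control. It was highest on the siRNA 1 arrays, which did not overlap those of any other group. The log2 fold change was 0.33 with siRNA 1 (SE 0.048, adjusted p = 0.00147) and -0.11 with siRNA 2 (adjusted p = 0.145). RPL28, which has no bacterial counterpart, was at 12.51 and 12.58 with siRNA 1, 11.69 and 11.80 with siRNA 2, and 12.27 and 12.22 in the control. It was thus above the control with one siRNA and below it with the other, with no overlap. The changes were 0.30 (SE 0.057, adjusted p = 0.00593) with siRNA 1 and -0.50 (SE 0.057, adjusted p = 0.00041) with siRNA 2, and both calls held under all 18 alternatives, as did that of RPL37A with siRNA 1.

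RPL13 had the same pattern at smaller size. Its brightest probe set was at 10.95 and 10.92 with siRNA 1, 10.51 and 10.43 with siRNA 2, and 10.73 and 10.69 in the control. That is 0.23 with siRNA 1 (adjusted p = 0.0182) and -0.24 with siRNA 2 (adjusted p = 0.0135). Of the other probe sets of RPL13, one went the same ways (0.36 and -0.27) and the other read 0.17 and 0.22, so the fall with siRNA 2 was not shared by all 3. Averaged over the probe sets, the fall was no longer called (adjusted p = 0.434).

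The large subunit genes that fell with siRNA 1 were RPL22, RPL10 and RPL36. RPL22, an RNA-binding protein known in mouse to be dispensable for translation in general, was at 6.91 and 6.81 with siRNA 1, against 7.27 and 7.18 in the control (-0.36, SE 0.091, adjusted p = 0.0188), without overlap, and for siRNA 2 at 7.06 and 7.21 (-0.09, adjusted p = 0.538). The controls at 100 nM had 6.86 and 7.09, so they reached the siRNA 1 levels. RPL10, which joins the large subunit late, was at 12.46 and 12.45 with siRNA 1, against 12.70 and 12.73 in the control (-0.26, adjusted p = 0.0113). The siRNA 2 value of RPL10 was -0.13 (adjusted p = 0.125). RPL36 was lower by a small margin (-0.17, adjusted p = 0.0477), a call lost under 12 of 18 alternatives. RPL12, at the base of the stalk, rose with siRNA 1 (0.19, adjusted p = 0.0148) and with siRNA 2 (0.17, adjusted p = 0.0215).

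The counts with siRNA 1 changed with the arrays used and the scaling. Without siRNA 1 replicate 1 the calls were 3 higher and 2 lower, while leaving out siRNA 1 replicate 2, or control 10 nM replicate 2, gave 4 and 3. With array medians centred, which moves all genes by 0.07, the split was 24 higher and 5 lower, where 21.4% of all genes were higher and 13.2% lower. After another quantile normalization it was 15 and 5, where all genes gave 16.1% and 15.3%.

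**Figure D1:**
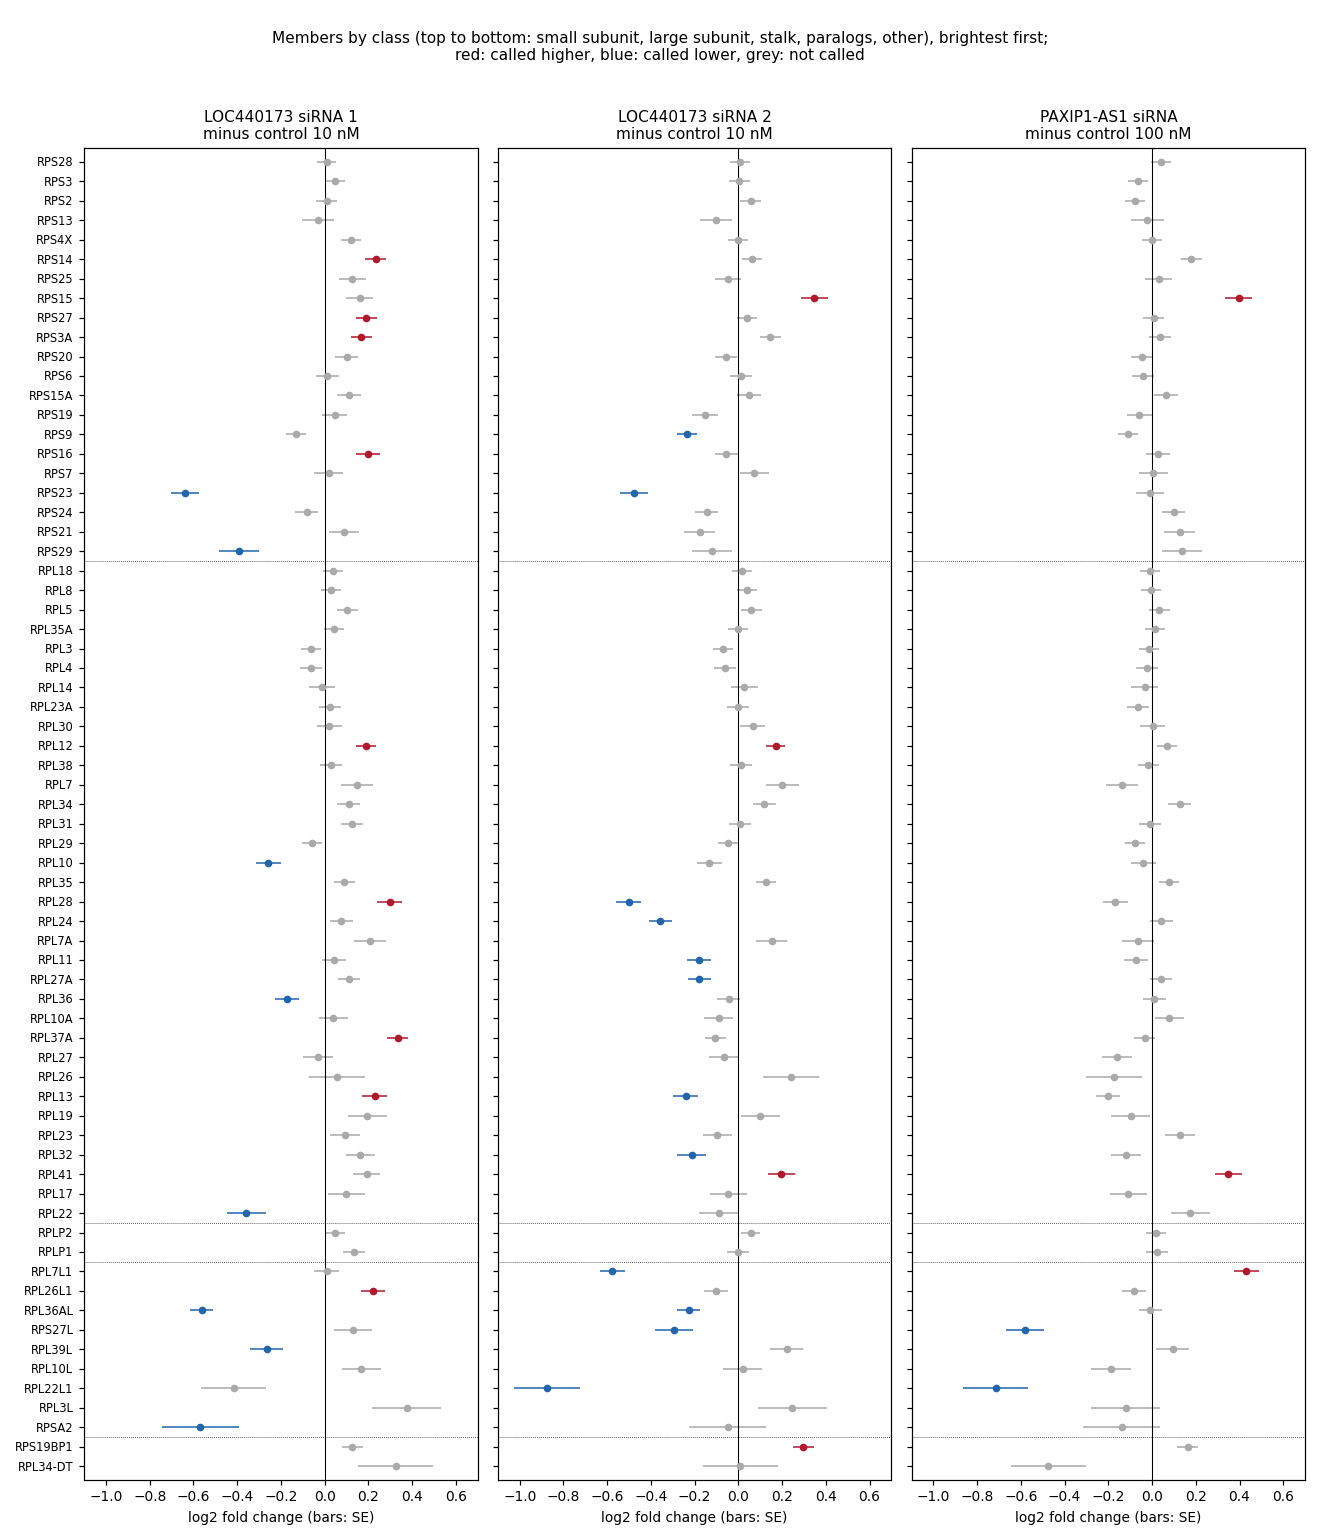
Log2 fold change of 68 genes (RPS4Y1 and RPS4Y2 are not shown) with siRNA 1 and siRNA 2 to LOC440173 against the control at 10 nM and of the PAXIP1-AS1 siRNA against its own 100 nM control. Points are limma estimates and bars their SE, red called higher and blue called lower. Most genes lie near 0 in each panel, RPS23 stands out to the left in the first 2 panels, RPL28 lies right of 0 with siRNA 1 and left of it with siRNA 2, and the paralogs in the lowest large block are the most spread.

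With siRNA 2, 4 of the 70 genes rose and 12 fell (22.9%), where 12.5% of all genes were called higher and 17.4% lower. The median log2 fold change was -0.02, with 0.01 over all genes. Of the large subunit, 2 genes rose and 6 fell, of the small subunit 1 rose and 2 fell, and of the 11 paralogs 0 rose and 4 fell. The split was 9 higher and 5 lower with array medians centred, which moves all genes by 0.09 and calls 20.4% of them higher and 12.3% lower. Without control 10 nM replicate 2 there were 2 higher, and without siRNA 2 replicate 1 there were 7 lower.

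RPL24, which forms a bridge between the subunits, was by the brightest probe sets the large subunit gene with the next largest fall after RPL28. It was at 11.70 and 11.74 with siRNA 2, 12.18 and 12.13 with siRNA 1, and 12.05 and 12.11 in the control. Only the siRNA 2 arrays were low. The log2 fold change with siRNA 2 was -0.36 (SE 0.051, adjusted p = 0.00146), the call held under all 18 alternatives, and a second probe set gave -0.32. For siRNA 1 the RPL24 value was 0.08 (adjusted p = 0.316).

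Smaller falls with siRNA 2 were those of RPS9 (-0.23, adjusted p = 0.00561), RPL32 (-0.21, adjusted p = 0.0447), RPL11 (-0.18, adjusted p = 0.0425) and RPL27A (-0.18, adjusted p = 0.0316). The calls of RPL32, RPL11 and RPL27A were lost under 12, 13 and 11 of 18 alternatives. RPL11, which together with RPL5 and the 5S RNA binds MDM2, was at 11.62 and 11.58 with siRNA 2, 11.82 and 11.84 with siRNA 1, and 11.79 and 11.78 in the control. RPL5 was at 13.59 and 13.61 with siRNA 2, 13.67 and 13.62 with siRNA 1, and 13.56 and 13.52 in the control, and was not called with siRNA 2 (0.06, 95% interval -0.05 to 0.17) or siRNA 1 (0.10, -0.01 to 0.21). Its other probe sets read 0.10 and -0.10 with siRNA 2 and -0.02 and 0.00 with siRNA 1, none called. RPL23, another MDM2 binder, was not called, with -0.10 for siRNA 2 (adjusted p = 0.366) and 0.09 for siRNA 1 (0.346). The other probe sets of RPL27A fell further with siRNA 2, by -0.50 and -0.68 (limma, adjusted p = 0.00406 and 0.00305 over all probe sets). A second probe set of RPL23A read -0.50 (adjusted p = 0.000634), where the brighter one read -0.00 and was not called. With siRNA 1 these other RPL27A probe sets read 0.52 (adjusted p = 0.0037) and 0.05 (0.741), and the brightest read 0.11. For RPS9, a dim second probe set went the other way (0.37).

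RPS15, which is needed for export of the small subunit from the nucleus, rose with siRNA 2. It was at 12.83 and 12.96 with siRNA 2, 12.70 and 12.71 with siRNA 1, and 12.58 and 12.51 in the control. All LOC440173 arrays were above the control arrays, the siRNA 2 arrays furthest. The log2 fold change was 0.35 (SE 0.061, adjusted p = 0.00399) with siRNA 2 and 0.16 (adjusted p = 0.0939) with siRNA 1. RPS15 has a second, dim probe set that read -0.06 with siRNA 2, and the mean of both was not called (adjusted p = 0.0996). RPL41, a very short protein at the subunit interface, was at 8.85 and 8.74 with siRNA 2, against 8.63 and 8.57 in the control (0.20, adjusted p = 0.0476, lost under 9 of 18 alternatives), and at 8.78 and 8.80 with siRNA 1 (0.19, adjusted p = 0.0526). RPS19BP1, known as a partner of the deacetylase SIRT1, rose by 0.30 with siRNA 2 (adjusted p = 0.00255).

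RPS6, RPS28 and RPS19 were not called with either LOC440173 siRNA by their brightest probe sets. RPS6, the target of S6 kinases, was at 12.58 and 12.66 with siRNA 2, 12.64 and 12.60 with siRNA 1, and 12.60 and 12.62 in the control (0.01 with each, 95% intervals -0.11 to 0.13 for siRNA 2 and -0.10 to 0.13 for siRNA 1). RPS28 gave 0.01 for each siRNA at its brightest probe set, with intervals of -0.09 to 0.11. Its other probe sets read 0.27 and -0.01 with siRNA 2 and 0.13 and 0.13 with siRNA 1, none called. RPS19, the gene most often mutated in Diamond-Blackfan anaemia, gave -0.15 for siRNA 2 and 0.05 for siRNA 1 (adjusted p = 0.0892 and 0.586).

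**Figure D2:**
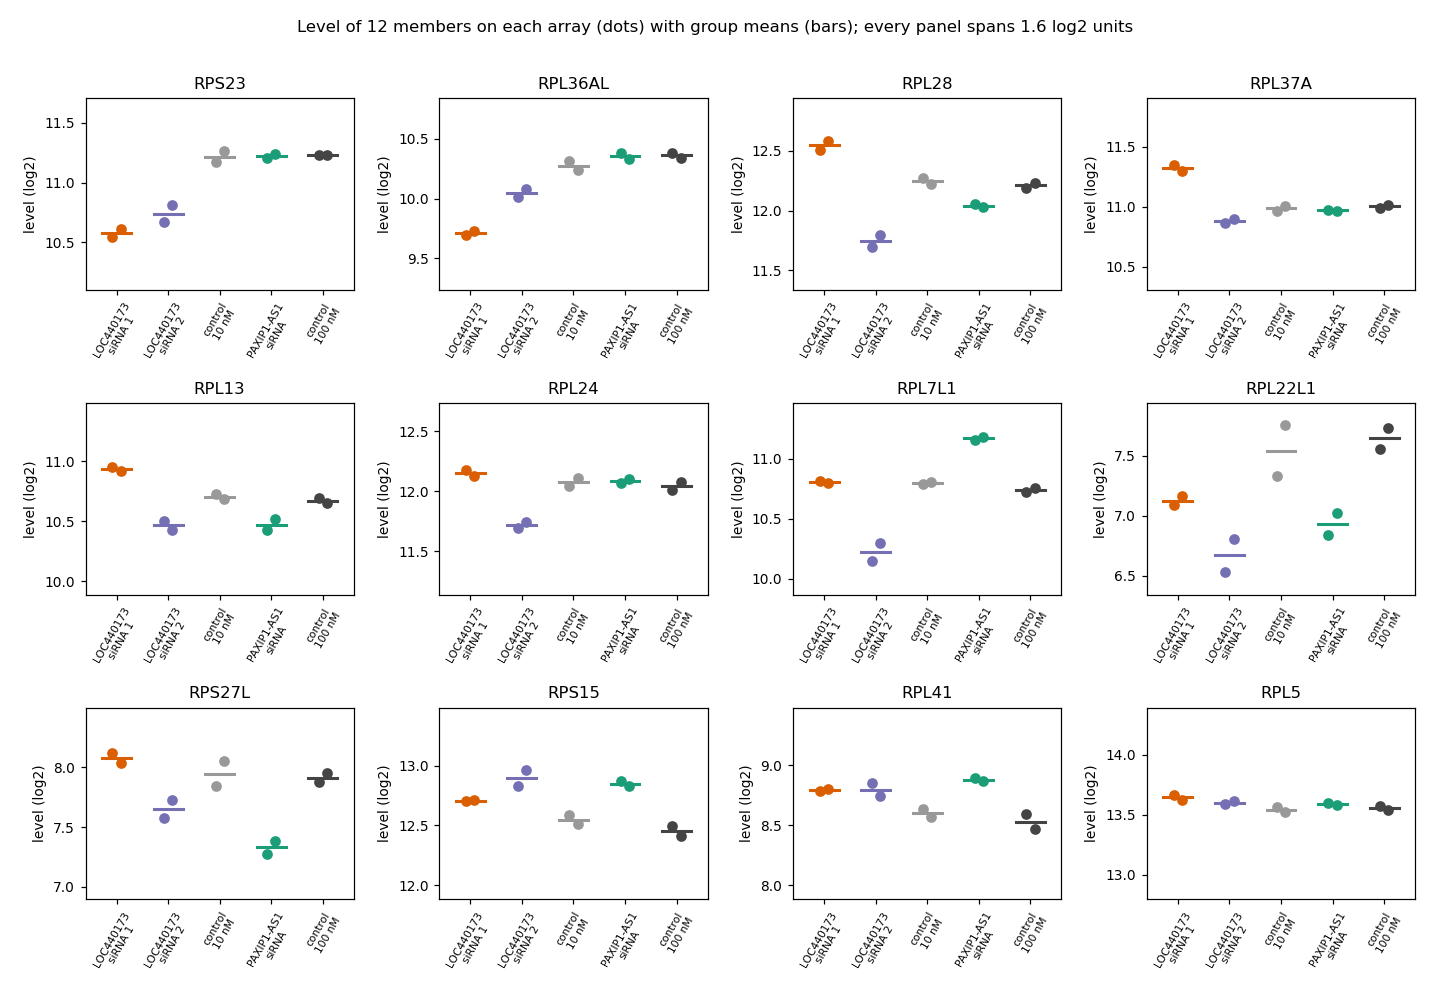
Level (log2) of 12 genes on each of the 10 arrays, as dots, with the group mean as a bar; every panel spans the same range. RPS23 and RPL36AL are below the control with both LOC440173 siRNAs, RPL28 and RPL13 are above it with siRNA 1 and below it with siRNA 2, RPL24 and RPL7L1 are low with siRNA 2, and RPL5 is near level.

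Of the 11 paralogs, 1 rose and 3 fell with siRNA 1 (36.4%, with 28.8% of all genes), and their median absolute change was 0.22, with 0.16 over all genes and 0.12 over the 70. RPL36AL, an intronless copy of RPL36A, was at 9.69 and 9.73 with siRNA 1, 10.01 and 10.08 with siRNA 2, and 10.31 and 10.24 in the control, with no overlap. It fell by 0.56 on the log2 scale with siRNA 1 (SE 0.049, adjusted p = 0.000199), to 67.7% of the control, a call kept under all 18 alternatives. With siRNA 2 the log2 fold change was -0.23 (adjusted p = 0.0134), lost with array medians centred (adjusted p = 0.0943). RPL39L, a copy known from male germ cells, was at 7.36 and 7.31 with siRNA 1, against 7.55 and 7.65 in the control (-0.27, adjusted p = 0.0320), and at 7.88 and 7.76 with siRNA 2 (0.22, adjusted p = 0.0598).

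RPL7L1, a relative of RPL7 known as a large subunit assembly factor, was at 10.15 and 10.30 with siRNA 2, 10.82 and 10.80 with siRNA 1, and 10.79 and 10.81 in the control. The siRNA 2 arrays stood below all others, at -0.58 (SE 0.058, adjusted p = 0.00023), and siRNA 1 gave 0.01 (adjusted p = 0.917). RPL7 itself was not called (0.20 with siRNA 2, adjusted p = 0.0776, and 0.15 with siRNA 1, adjusted p = 0.172). A second, dimmer probe set of RPL7L1 read -0.79 with siRNA 2 and -0.06 with siRNA 1, and was not called with either.

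RPL22L1, the paralog that RPL22 is known to restrain in mouse, was at 6.53 and 6.81 with siRNA 2, 7.09 and 7.16 with siRNA 1, and 7.33 and 7.75 in the control. The groups did not overlap, though the control arrays were far apart. The log2 fold change was -0.87 with siRNA 2 (SE 0.15, adjusted p = 0.00321), the largest of any gene in the set, and -0.42 with siRNA 1 (adjusted p = 0.0744), which was called when control 10 nM replicate 1 was left out (adjusted p = 0.0158). RPS27L, a p53-responsive copy of RPS27, was at 7.57 and 7.73 with siRNA 2 and 8.12 and 8.04 with siRNA 1, against 7.84 and 8.05 in the control. The fall with siRNA 2 was -0.29 (adjusted p = 0.0350), which was lost under 12 of 18 alternatives, and RPS27 differed by 0.04 (adjusted p = 0.608).

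Of the remaining copies, RPL26L1 rose with siRNA 1, at 10.62 and 10.59, against 10.37 and 10.39 in the control (0.22, adjusted p = 0.0163), and RPL26 differed by 0.06 (adjusted p = 0.772). A second, dimmer probe set of RPL26L1 (level 7.12) read 0.17 with siRNA 1 and was not called. The dim RPSA2 fell with siRNA 1, at 5.03 and 5.23, against 5.61 and 5.79 (-0.57, SE 0.18, adjusted p = 0.0455), a call lost under 11 of 17 alternatives. RPL3L and RPL10L, known from muscle and testis, were dim and were not called with either siRNA.

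Comparing the siRNAs directly, siRNA 2 had 5 genes higher and 17 lower than siRNA 1 (31.4% of 70), where 18.2% of all genes were called higher and 19.0% lower. By the brightest probe set of each gene, RPL28 differed most, by -0.80 (SE 0.057, adjusted p = 2.36e-05), so that siRNA 2 cells had 57.4% of the siRNA 1 level. RPL7L1 (-0.59), RPL13 (-0.47), RPL22L1 (-0.46), RPL37A (-0.44), RPL24 (-0.43) and RPS27L (-0.43) followed. Dimmer probe sets of RPL27A read -1.02 and -0.73 (limma, adjusted p = 0.000107 and 0.00137 over all probe sets), where its brightest read -0.29. A dimmer probe set of RPL23A read -0.60 (adjusted p = 0.000169), where its brightest read -0.03 and was not called. The 5 higher genes were RPL39L (0.49), RPL36AL (0.33), RPL22 (0.27), RPS15 (0.19) and RPS19BP1 (0.17). For RPS15 the second probe set read -0.20, and the mean of both turned the direction (-0.00831). The calls of RPL22L1 and RPL22 were lost under 9 of 17 alternatives. RPS23, lower than the control with both siRNAs, was not among the 22.

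Of the 22 calls between the siRNAs, those of RPL28, RPL7L1, RPL13, RPL37A, RPL24, RPS27L, RPL32, RPL27A, RPS16, RPL39L and RPL36AL held under every alternative run. Leaving out siRNA 1 replicate 1 gave 2 higher and 10 lower, and leaving out siRNA 1 replicate 2 or siRNA 2 replicate 2 gave 2 and 11. Without either PAXIP1-AS1 array, which enter only the pooled spread, 3 were higher.

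In cells given the PAXIP1-AS1 siRNA, 3 of the 70 genes were higher than in the 100 nM control and 2 lower (7.14%), where 2.86% of all genes were called higher and 1.76% lower. The median was -0.01, as over all genes. The paralogs gave 3 of these 5 calls, and the subunit genes 1 each. All 5 calls were lost when any 1 of the 4 compared arrays was left out, and those of RPL22L1 and RPL41 also without either siRNA 1 array, which enters only the pooled spread.

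RPL7L1 was at 11.16 and 11.19 with the PAXIP1-AS1 siRNA, against 10.73 and 10.75 in the control at 100 nM, a log2 fold change of 0.43 (SE 0.058, adjusted p = 0.00792). It thus rose here and fell with siRNA 2. The second, dimmer probe set of RPL7L1 read 1.14 and was not called (limma, adjusted p = 0.132 over all probe sets). RPS15 was at 12.87 and 12.83, against 12.49 and 12.41 (0.40, SE 0.061, adjusted p = 0.0146), while the mean of both RPS15 probe sets was not called (adjusted p = 0.534). RPL41 was at 8.89 and 8.86, against 8.59 and 8.47 (0.35, adjusted p = 0.0229).

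The genes that fell with the PAXIP1-AS1 siRNA were both paralogs. RPS27L was at 7.28 and 7.38, against 7.88 and 7.95 in the control at 100 nM (-0.58, SE 0.086, adjusted p = 0.0119), or 66.8% of the control. RPL22L1 was at 6.84 and 7.02, against 7.56 and 7.74 (-0.72, SE 0.15, adjusted p = 0.0396). In both the groups did not overlap, and the genes they resemble, RPS27 (0.01) and RPL22 (0.17), were not called (adjusted p = 0.965 and 0.361).

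The PAXIP1-AS1 effect was tested against the mean effect of both LOC440173 siRNAs. It was higher for 3 of the 70 genes and lower for 1, with 8.79% and 2.78% over all genes. RPL7L1 (0.72, SE 0.077, adjusted p = 0.0016), RPS23 (0.55, adjusted p = 0.0063) and RPL36AL (0.39, adjusted p = 0.0122) differed upwards and RPS27L downwards (-0.50, adjusted p = 0.0292). The RPS27L call was lost without any of 7 arrays, and that of RPL36AL without control 100 nM replicate 2 or PAXIP1-AS1 replicate 1.

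The control at 100 nM did not differ from the control at 10 nM in any of the 70 genes by limma's adjusted p, nor in any of all genes (0%). At an unadjusted p under 0.05 there was 1, RPL22 (-0.25, limma), as there were 692 of all genes.

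**Figure D3:**
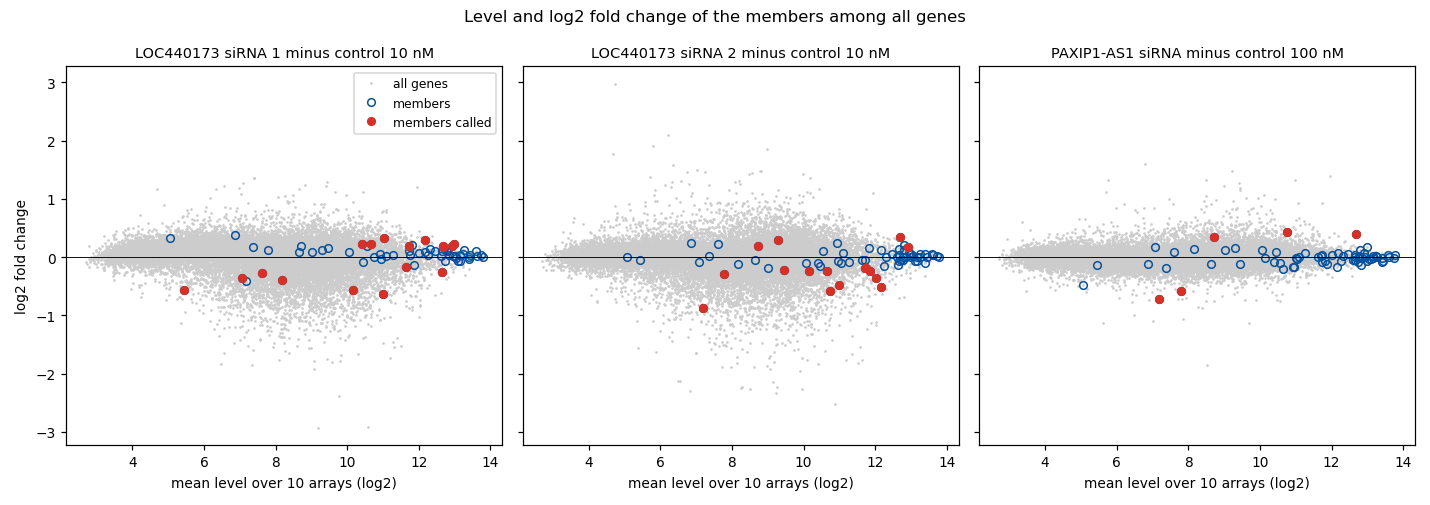
Log2 fold change against the mean level over 10 arrays for all 18404 genes (grey) and the ribosomal protein genes (circles, filled where called), for siRNA 1 and siRNA 2 to LOC440173 and the PAXIP1-AS1 siRNA, each against its control. Ribosomal protein genes crowd at the right, where 35 lie at 12 or more, and most calls with siRNA 2 lie to the left of that crowd.

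Calls were also counted by level. Of the 35 genes at 12 or more, siRNA 1 changed 17.1% and siRNA 2 11.4%, where 26.7% and 30.0% of all 273 genes at 12 or more were called. Of the 35 genes below 12 the shares were 31.4% and 34.3%, where 28.8% and 30.0% of all genes at any level were called. No test was made of these differences.

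Genes that act with ribosomal proteins were counted in the same way, beside 28.8% of all genes called with siRNA 1, 30.0% with siRNA 2 and 4.62% with the PAXIP1-AS1 siRNA. No list was tested against the rest. Of 19 other TOP messenger RNAs, those of translation factors among them, 1 rose and 1 fell with siRNA 1 (10.5%). With siRNA 2, 0 rose and 7 fell (36.8%). The list includes FAU, which also encodes a ribosomal protein but was not taken by the symbol rule. EIF4A2, an initiation factor helicase, rose with siRNA 1 (0.54, adjusted p = 0.00142) and fell with siRNA 2 (-0.44, adjusted p = 0.00355). IPO5 fell with siRNA 1 (-0.20, adjusted p = 0.0280). EIF3L, a subunit of the initiation factor eIF3, was at 12.12 and 12.12 with siRNA 2 and 12.72 and 12.71 with siRNA 1, against 12.80 and 12.85 in the control (-0.70, SE 0.047, adjusted p = 3.49e-05 with siRNA 2, and -0.11, adjusted p = 0.131 with siRNA 1). EEF1D, an elongation factor subunit, fell by 0.54 with siRNA 2 (adjusted p = 0.000762) and VIM by 0.31 (0.00334). For the PAXIP1-AS1 siRNA 0 of the 19 were called by limma, and 2 had an unadjusted p under 0.05.

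Of 67 ribosome assembly factors, 10 rose and 9 fell with siRNA 1 (28.4%, near the share of all genes), and 19 rose and 10 fell with siRNA 2 (43.3%). NOLC1, a nucleolar chaperone of small nucleolar particles, fell with siRNA 1 (-1.03, adjusted p = 1.97e-05) and rose with siRNA 2 (0.35, adjusted p = 0.00261). SBDS, which frees the large subunit from its last anti-association factor, did the same, at 10.02 and 10.04 with siRNA 1 and 11.16 and 11.11 with siRNA 2, against 10.70 and 10.66 in the control (-0.65 and 0.45, adjusted p = 6.17e-05 and 0.000286). RRP1B also fell with siRNA 1 (-0.66, adjusted p = 4.95e-05) and was higher with siRNA 2 (0.16, 0.0340), where RRP12 (-0.63, 8.21e-05) and BMS1 (-0.59, 0.000492) fell. For the PAXIP1-AS1 siRNA, 3 of the 67 rose and 1 fell (5.97%). NOB1, which matures the 18S RNA, rose by 0.45 (adjusted p = 0.00816) and the export adaptor NMD3 by 0.43 (0.0195), and RRP1B fell (-0.25, 0.0255).

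RNA polymerase I genes had 2 higher and 1 lower of 20 with siRNA 1 (15.0%) and 5 higher and 2 lower with siRNA 2 (35.0%). POLR1C, a subunit shared with polymerase III, rose with siRNA 1 (0.61, adjusted p = 7.19e-05) and siRNA 2 (0.47, 0.000204). POLR1D fell (-0.51, 0.000456) and TAF1A rose (0.48, 0.0339) with siRNA 1, while RRN3 rose (0.54, 0.00154) and POLR1H fell (-0.51, 0.000966) with siRNA 2. The PAXIP1-AS1 siRNA gave 1 call (5.00%), a fall of POLR1A (-0.27, adjusted p = 0.0192). Of 13 chaperones and importers of ribosomal proteins, 1 rose and 2 fell with siRNA 1 (23.1%), TSR2 by 0.30, PDCD2 by -0.57 and HEATR3 by -0.40. With siRNA 2, 4 rose and 3 fell (53.8%), HEATR3 by 0.33, GRWD1 by -0.31 and TNPO1 by -0.28 among them, and with the PAXIP1-AS1 siRNA only IPO7 rose (0.37, 7.69% of the list).

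Of 30 regulators of mTOR and TOP translation, 6 rose and 7 fell with siRNA 1 (43.3%), 9 rose and 7 fell with siRNA 2 (53.3%), and 3 rose with the PAXIP1-AS1 siRNA (10.0%). With siRNA 1 the GTPase RRAGD fell by 1.03, the translation repressor EIF4EBP1 by 0.73 and the TOP binder LARP1 by 0.38 on the log2 scale (adjusted p = 1.88e-05, 0.000145 and 0.00089). With siRNA 2 RRAGD rose (0.41, adjusted p = 0.000993), EIF4EBP1 was at 0.01 (0.906) and LARP1 fell (-0.40, 0.000584). The genes with the smallest p with siRNA 2 were the stress protein SESN3 (0.94, adjusted p = 1.66e-05), the mTOR inhibitor TSC2 (-0.59, 7.78e-05) and DEPTOR (0.47, 0.000297). DDIT4, another mTOR inhibitor, rose with the PAXIP1-AS1 siRNA (0.99, adjusted p = 0.000725), as did SESN3 (0.32, 0.0160) and RPS6KA1 (0.33, 0.0397).

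Of 10 genes of p53 and 5S particle surveillance, 1 rose and 4 fell with siRNA 1, 2 rose and 3 fell with siRNA 2, and 1 rose and 3 fell with the PAXIP1-AS1 siRNA, beside 28.8%, 30.0% and 4.62% of all genes called. MDM2, the ligase that RPL5 and RPL11 bind, was at 10.58 and 10.56 with siRNA 1, 10.21 and 10.36 with siRNA 2, and 11.08 and 11.17 in the control at 10 nM (-0.56 and -0.84, adjusted p = 0.000484 and 5.99e-05). With the PAXIP1-AS1 siRNA it was at 10.71 and 10.73, against 11.11 and 11.18 in the control at 100 nM (-0.42, adjusted p = 0.0122). The p53 target CDKN1A fell there too, at 8.29 and 8.21, against 8.94 and 9.05 (-0.75, adjusted p = 0.000852). It also fell with siRNA 1 (-0.39, adjusted p = 0.00178), where RPS27L was at 0.13 and not called, and with siRNA 2 (-0.30, adjusted p = 0.0061), where RPS27L was at -0.29. GTF3A, which binds the 5S RNA, fell with siRNA 1 (-0.48, adjusted p = 0.00028) and rose with siRNA 2 (0.39, 0.00058), NOP53 fell with siRNA 2 (-0.44, 0.000819), and HEXIM1 rose with the PAXIP1-AS1 siRNA (0.42, 0.00643).

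**Figure D4:**
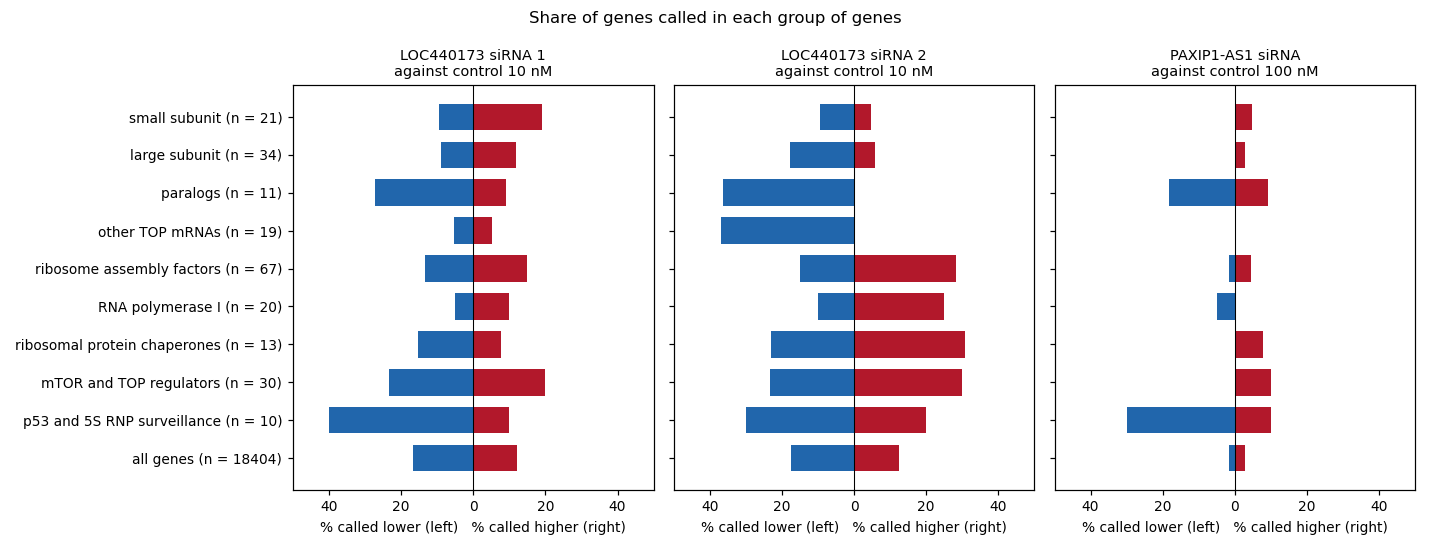
Share of genes called lower (blue, left) and higher (red, right) in each group of genes with siRNA 1 and siRNA 2 to LOC440173 and the PAXIP1-AS1 siRNA, each against its control, with all genes in the lowest row. With siRNA 2 the paralogs and the other TOP messenger RNAs have only falls, 4 of 11 and 7 of 19, while the assembly factors have 19 rises and 10 falls of 67.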

How the data were processed

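RNA from 10 samples of HEK-293 cells (5 groups of 2) was measured on Affymetrix arrays. The deposited values are log2 levels for 32321 probe sets; RMA and limma are named in the submitters' processing notes, without versions. No array definition file or build is stated (not given in the sources used here). Levels above background are unknown, and the number of arrays limits the precision.

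Platform annotation gave 1 symbol for 19158 probe sets and several for 1388. Each gene was represented by its probe set of highest mean over the 10 arrays, which left 18404 genes. The 70 genes had 103 probe sets, and 22 had several. All 70 gene IDs were in the RefSeq table.

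A limma fit (3.58.1, R 4.3.3) of all 10 arrays with a mean per group and eBayes had 5 residual and 2.87 prior degrees of freedom. Tests were two-sided, p-values were adjusted by Benjamini-Hochberg over all genes, and genes with an adjusted p under 0.05 were called. An exact permutation test of 2 arrays against 2 cannot go below p = 0.333, so calls rest on the pooled spread. The code was tested on simulated data. Same-numbered arrays deviated with correlations of 0.068 to 0.53, some under 0.1, so the numbers were not taken as pairs.

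Named genes are, per contrast, the 6 called members with the largest rise and the 6 with the largest fall (the 3 smallest p where none is called), members with known roles, and the 3 called genes of smallest p in each other list, given for the 3 contrasts with a control siRNA at the same dose. Other called members, and RPS28 and RPL23A, whose brightest probe sets were not called, were named after their values were seen. The members and lists were chosen with earlier results of these data known. A list of 12 small nucleolar RNA hosts had 2 measured genes, with 0 called by limma in any contrast and, at an unadjusted p under 0.05, 1 with siRNA 1 and 1 with siRNA 2. Alternatives were another quantile normalization, array medians centred, the mean of all probe sets, dim genes left out, only the compared groups, a trend and robust prior, array weights, the replicate block, and each array left out.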

Additional observations from a re-analysis of the deposited data

Results flagged for a closer look

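For 4 genes the effect of the PAXIP1-AS1 siRNA differed from the mean effect of the LOC440173 siRNAs, by the limma contrast of these effects. The difference was 0.72 on the log2 scale for RPL7L1, whose changes were 0.43 with the PAXIP1-AS1 siRNA, against 0.01 and -0.58 with siRNA 1 and siRNA 2. It was 0.55 for RPS23 (-0.01, against -0.64 and -0.48) and 0.39 for RPL36AL (-0.01, against -0.56 and -0.23). For RPS27L it was -0.50 (-0.58, against 0.13 and -0.29). The target, the siRNA, the dose and the control arrays differ together between these experiments and cannot be told apart.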

How the results depend on the processing

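Counts below are higher/lower members. Array medians centred gave 24/5 with siRNA 1 and 9/5 with siRNA 2, 1 lower with the PAXIP1-AS1 siRNA, and median log2 fold changes of 0.132 (siRNA 1), 0.0745 (siRNA 2), -0.0269 (siRNA 2 against siRNA 1), 0.0221 (PAXIP1-AS1) and -0.0846 (the difference of effects). Another quantile normalization gave 15/5 with siRNA 1, 7 higher with siRNA 2, 1 lower with the PAXIP1-AS1 siRNA, and 2 lower with a median of -0.0614 for the difference of effects. Dim genes left out gave 17, 8 and 5 higher with siRNA 1, siRNA 2 and the PAXIP1-AS1 siRNA, and 6/3 for the difference of effects. Only the compared groups gave 2 higher with siRNA 1, 0/5 with siRNA 2, 2 higher between the siRNAs and 1/1 with the PAXIP1-AS1 siRNA. The trend and robust prior gave 24, 9 and 9 higher with siRNA 1, siRNA 2 and between the siRNAs, 5/5 with the PAXIP1-AS1 siRNA and 7/7 for the difference of effects. Array weights gave 2 higher with siRNA 2, and the mean of all probe sets a median of -0.0335 there. That mean also turned RPS9 with siRNA 2 (0.07) and RPS15 between the siRNAs (-0.00831).

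With the replicate number as a block, 8 were higher between the siRNAs and 2 lower for the difference of effects; other counts stayed within 1.5 times. RPL22L1 with siRNA 1 was then called (-0.416, adjusted p = 0.00638). The numbers do not show pairs (correlations from 0.068 to 0.53).

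Leaving out each array gave 3 to 10 higher and 2 to 8 lower with siRNA 1 (median 0.0490 to 0.0762), 2 to 4 and 7 to 9 with siRNA 2, 2 to 7 and 10 to 19 between the siRNAs (median -0.0641 to -0.0362), 0 to 3 and 0 to 2 with the PAXIP1-AS1 siRNA, and 2 to 3 and 0 to 2 for the difference of effects (median -0.0390 to -0.0154). A lone array is then assumed to vary like the other groups. The cause of these shifts was not tested. The control doses gave 0 calls by limma throughout.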
